A study of Homo sapiens with 3 samples.

Results

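Narrow isolated origins are short stretches of DNA that were called as enriched in nascent strands and that had no other called region nearby. On chromosomes 1 to 22, a region called with EPIC2 was taken as a member when it was 1000 bases wide or less, held exactly 1 MACS2 summit of its own replicate and lay 20 kb or more from any other EPIC2 region of that replicate. Replicate 1 had 6508 such regions out of 123901, replicate 2 had 1702 out of 44289, and replicate 3 had 786 out of 78782. Together these were 8996 of 246972 regions, or 3.64%. The members were thus chosen by width, summit number and distance within a replicate, and those values are given here as a description.

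Replication of the human genome starts at many origins, which are licensed in the G1 phase when the origin recognition complex loads the MCM helicase and which fire during S phase. Many origins lie close together in initiation zones, while others stand alone in long stretches replicated by passing forks. Human origins share no strict sequence consensus, and efficient ones are often found near transcription start sites. Short nascent strand sequencing (SNS-seq) maps origins from short, RNA-primed nascent strands, which are protected from digestion by lambda exonuclease.

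Untreated HCT116 cells, a long-established line from a human colorectal carcinoma, gave the libraries, which made up 1 group of 3 replicates. The study describes independently repeated experiments, in triplicate for these cells, while the labels tie no replicate to a culture. Each replicate had a list of EPIC2 regions, which are diffuse enriched stretches built from steps of 200 bases, and a list of MACS2 summits, which are single bases with the highest enrichment of a narrow peak. The sources used here name no control library for the calling. The lists hold calls and no reads, so the read depth behind them is unknown. All positions are in hg19. Sequence and gene annotation were not used here, since the reference at hand was of another build.

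The number of members differed between replicates more than the number of calls did. The mean was 2999 ± 3073 (SD, n = 3), and the largest number was 8.28 times the smallest. As a share of all EPIC2 regions, members made up 5.25%, 3.84% and 0.998% of replicates 1, 2 and 3. Replicate 3 had 78782 regions, yet 2885 of them were narrow, against 36102 narrow regions in replicate 1. Replicate 2 had the largest share of regions that were isolated at any width, 29.1%, against 10.5% in replicate 1 and 12.4% in replicate 3. The replicates therefore lost regions at different steps of the rule. The requirement of exactly 1 summit removed few, since 93.4%, 91.8% and 96.3% of narrow isolated regions in replicates 1, 2 and 3 had it. The regions without any summit numbered 340, 136 and 25 in the same order, and those with more than 1 summit numbered 120, 16 and 5.

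Members were found at each of the 5 widths up to the limit. The median width was 600 bases in each of the 3 replicates. A width of 400 bases was the most frequent in replicate 1, with 2436 members or 37.4%. In replicates 2 and 3 the limit of 1000 bases was the most frequent width, with 453 members (26.6%) and 246 members (31.3%). The summit lay near the middle of the region, at a median of 79.5, 111 and 104 bases from its centre in replicates 1, 2 and 3. The nearest other EPIC2 region lay at a median distance of 40400, 52200 and 57100 bases in replicates 1, 2 and 3. The most distant members were 3550400, 1580800 and 3706000 bases from any other region.

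Isolation from other regions was not isolation from other summits. In replicate 1, 74.9% of members had another summit of the same replicate within 20 kb, and in replicate 3 this share was 80.5%. In replicate 2 it was 41.2%. Members with no other EPIC2 region and no other summit within 20 kb numbered 1631, 1000 and 153 in replicates 1, 2 and 3. Replicate 2, which had the fewest summits of the 3 libraries (62131 on these chromosomes, against 215368 and 161271), also had the largest share of members alone by this stricter measure.

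Summits of members had high scores. The summit score is −log10 of the q-value, and its median was 11.1, 12.5 and 11.6 in replicates 1, 2 and 3, against 4.83, 3.38 and 3.92 for all summits of the same replicates. The median member stood at percentile 86.9, 90.6 and 97.7 among all summits of its replicate, a mean of 91.7 ± 5.53 (SD, n = 3). Scores of members ranged from 1.48 to 88.2 in replicate 1, from 1.92 to 114 in replicate 2 and from 3.63 to 89.2 in replicate 3. Narrow crowded regions are defined here as single-summit regions of the same widths that lay nearer than 20 kb to another region. Their median summit percentiles were 79.8, 87.1 and 93.2, below those of the members in every replicate. This order held at each of the 5 widths in each replicate. At 1000 bases the medians were percentiles 81.4 and 72.7 in replicate 1 for isolated and crowded regions, 88.8 and 82.9 in replicate 2, and 95.3 and 89.6 in replicate 3. Summit scores fell with width, with Spearman correlations across members of -0.26, -0.22 and -0.43 in replicates 1, 2 and 3, which describe regions called from the same reads and carry no test.

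The EPIC2 score ranked the same regions low or in the middle. Among all EPIC2 regions of replicates 1, 2 and 3, the median member stood at percentile 29.4, 48.7 and 16.8. The mean was 31.7 ± 16.1 (SD, n = 3). The median scores were 31.8, 38.6 and 37.1, against 41.4, 39.1 and 50.5 over all regions. For narrow crowded regions the percentiles were 33.5, 48.3 and 21.7, above those of members in replicates 1 and 3 and slightly below in replicate 2. Within members the 2 scores rose together, with Spearman correlations of 0.75, 0.79 and 0.48 in replicates 1, 2 and 3. Isolated single-summit regions wider than the limit stood at percentiles 38.2, 49.7 and 28.9 in replicates 1, 2 and 3. Members thus ranked high by the narrow-peak caller and low to middling by the diffuse-region caller. This contrast was not particular to members, since both other classes also ranked higher by summit score than by EPIC2 score in every replicate. The 2 ranks have different references, all summits and all regions. Both callers read the same library, and what kind of score EPIC2 wrote is not stated.

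Whether another library found the same place was asked with the summits of the other replicates, which the rule did not use. A member counted as matched when a summit of another replicate lay within 250 bases of its own. In replicate 1, 2866 of 6508 members were matched in at least 1 other replicate, or 44.0% (95% exact Clopper-Pearson interval 42.8% to 45.3%), against 31.1% of all summits of that replicate. In replicate 2, 1172 of 1702 members were matched, or 68.9% (66.6% to 71.1%), against 55.5% of all summits. In replicate 3, 368 of 786 members were matched, or 46.8% (43.3% to 50.4%), against 28.1% of all summits. Members were above the share of all summits in each replicate, by factors of 1.41, 1.24 and 1.66. Such an excess was not particular to members. The factors were 1.27, 1.25 and 1.40 for narrow crowded regions, higher than for members in replicate 2. Isolated single-summit regions wider than the limit had factors of 1.26, 1.14 and 1.15. The mean matched share of members was 53.2% ± 13.6 (SD, n = 3). The intervals cover counting error only.

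Member summits moved in circles along their chromosomes gave the level met without shared positions. Over 99 evenly spaced shifts the matched share averaged 3.61%, 5.94% and 4.11% in replicates 1, 2 and 3. The highest of the shifts gave 4.13%, 7.29% and 5.98%. The observed share was 12.2, 11.6 and 11.4 times the shifted mean, a mean ratio of 11.7 ± 0.419 (SD, n = 3). The matched shares themselves differed much more between replicates than this ratio did. Shifts of only 10 to 50 kb, which keep a summit in its own neighbourhood, gave 2.86%, 6.10% and 3.69%, and a mean ratio of 13.1 ± 2.09 (SD, n = 3). For narrow crowded regions such short shifts gave 5.76%, 9.88% and 7.05%, and a mean ratio of 6.50 ± 0.815 (SD, n = 3). Over the 99 circular shifts their mean ratio was 9.87 ± 1.13 (SD, n = 3), against 11.7 for members. Isolated single-summit regions wider than the limit had 9.70 ± 1.77 (SD, n = 3) over the circular shifts and 9.22 ± 2.21 over the short ones. The surroundings of members were therefore poorer in summits of the other replicates than those of crowded regions. Members were chosen by distance from regions of their own replicate, and how much of the short-shift contrast this choice brings was not tested. No p is given for these ratios, which set a level and do not test one.

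**Figure D1:**
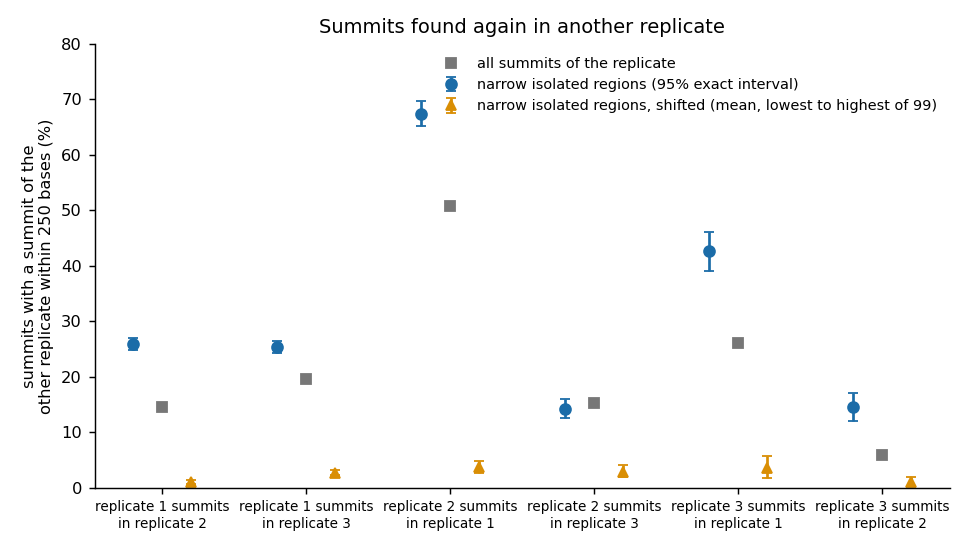
Share (%) of member summits of each replicate with a summit of 1 other replicate within 250 bases (circles, 95% exact interval), of all summits of the replicate (squares), and of member summits after circular shifts (triangles, mean with the lowest and highest of 99 shifts). Members lay above all summits in 5 of 6 directed pairs, the exception being replicate 2 in replicate 3 (14.2% against 15.3%), and above every shift in all 6.

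The matches were uneven over the pairs of replicates. Members of replicate 2 were found in replicate 1 in 67.5% of cases (1148 of 1702), against 50.7% of all summits of replicate 2. Members of replicate 3 were found in replicate 1 in 42.6% of cases (335 of 786), against 26.2%. Members of replicate 1 were found in replicate 2 in 25.9% of cases (1683 of 6508), against 14.6%, and in replicate 3 in 25.3% (1648 of 6508), against 19.6%. Members of replicate 3 were found in replicate 2 in 14.5% of cases (114 of 786), against 5.88%. The pair of replicates 2 and 3 gave the only share below that of all summits, since 14.2% (242 of 1702) of members of replicate 2 were found in replicate 3, against 15.3%. Shifted members gave between 1.00% and 3.73% in the 6 directed pairs. The matched share in any other replicate rested on replicate 1: without it the mean fell from 53.2% to 14.4%. Without replicate 2 it was 34.0% and without replicate 3 it was 46.7%.

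Members were found in both other replicates less often than in 1 of them alone. In replicate 1 there were 465 such members, or 7.15%, in replicate 2 there were 218, or 12.8%, and in replicate 3 there were 81, or 10.3%. The product of the shares matched in each of the other replicates was 6.55%, 9.59% and 6.18% in the same order. Of all summits of replicate 1, 14.6% were found in replicate 2, 19.6% in replicate 3 and 31.1% in at least 1 of these. For replicate 2 the shares were 50.7% in replicate 1, 15.3% in replicate 3 and 55.5% in at least 1. For replicate 3 they were 26.2% in replicate 1, 5.88% in replicate 2 and 28.1% in at least 1. The share of all summits found in both was not counted directly. Members matched in neither numbered 3642 in replicate 1 (56.0%), 530 in replicate 2 (31.1%) and 418 in replicate 3 (53.2%).

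Matched summits of replicates 1 and 2 lay close together, while those of replicate 3 lay at some distance. The median distance was 43 bases from members of replicate 1 to summits of replicate 2, and 39 bases from members of replicate 2 to summits of replicate 1. It was 126 bases from members of replicate 1 to replicate 3 and 117 bases from members of replicate 3 to replicate 1. Of the matches between members of replicate 1 and summits of replicate 2, 55.7% lay within 50 bases, against 346 of 1648 matches for summits of replicate 3. Around members of replicate 1, summits of replicate 3 were most dense at 100 to 150 bases, with 642 summits per 1000 members and kb, against 526 at 0 to 50 bases. Summits of replicate 2 fell steadily from 1439 at 0 to 50 bases to 76.8 at 200 to 250 bases. Around members of replicate 3, summits of replicate 1 stood at 990 within 50 bases, 1031 at 100 to 150 bases and 980 at 150 to 200 bases. Between replicates 2 and 3 the density was highest within 50 bases in both directions, at 439 and 424. In all 6 directed pairs the density at 500 to 1000 bases was at most 81.4 summits per 1000 members and kb.

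**Figure D2:**
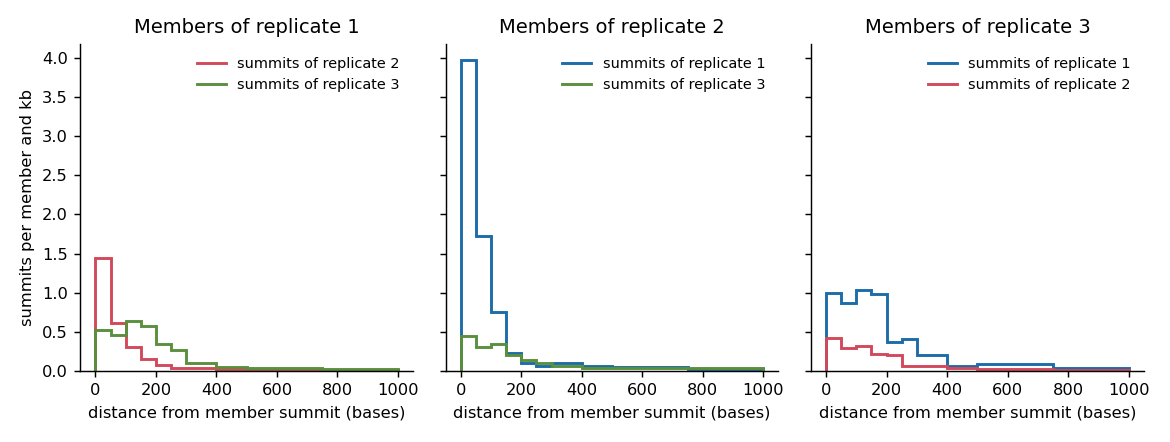
Summits of another replicate per member and kb (vertical axis) by distance in bases from the member summit, both sides together, for members of each replicate. Replicates 1 and 2 had their maximum at 0 to 50 bases from each other, whereas summits of replicate 3 had no maximum there around members of replicate 1.

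Where another replicate held a call at a member, it was often a summit with no region, or a wider region. The share of members with neither a region nor a summit there ran from 25.4% (replicate 2 in replicate 1) to 82.1% (replicate 3 in replicate 2). What was held was counted for members only, not for other classes of regions or for shifted members. The shares are therefore not shown to be a trait of members. At members of replicate 1, replicate 2 had an EPIC2 region in 12.5% of cases (813 of 6508), and a summit within 250 bases with no region in a further 16.4% (1066). In replicate 3 the values were 9.17% (597) and 20.3% (1321). At members of replicate 2, replicate 1 had a region in 59.0% of cases (1004 of 1702) and a summit with no region in 15.6% (266), whereas replicate 3 had a region in 14.0% (238) and a summit with no region in 9.22% (157). At members of replicate 3, replicate 1 had a region in 24.9% (196 of 786) and a summit with no region in 24.2% (190). The corresponding values in replicate 2 were 7.25% (57) and 10.7% (84). Overlapping regions had a median width of 1000 bases in replicate 1, 1600 to 2400 bases in replicate 2 and 2600 to 3200 bases in replicate 3. A wider region with a summit was held at 4.2% to 23.9% of members over the 6 pairs. At members of replicate 2, replicate 1 held a narrow region with a summit more often (237 isolated, 291 other with 1 summit and 4 with more) than a wider one (406). Narrow regions made up 9.81% and 3.66% of all regions in replicates 2 and 3, against 29.1% in replicate 1.

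Where a region was present in the other replicate, a summit of that replicate lay within 250 bases of the member's in most cases in 5 of 6 directed pairs, the exception being members of replicate 2 in replicate 3. Of the members of replicate 2 that a region of replicate 1 overlapped, 87.8% had a summit of replicate 1 within 250 bases. The share was 75.9% for members of replicate 1 overlapped in replicate 2 and 74.0% for members of replicate 3 overlapped in replicate 1. It was 54.8% for members of replicate 1 overlapped in replicate 3 and 52.6% for members of replicate 3 overlapped in replicate 2. For members of replicate 2 overlapped in replicate 3 it was 35.7%. These shares, too, were counted for members only.

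**Figure D3:**
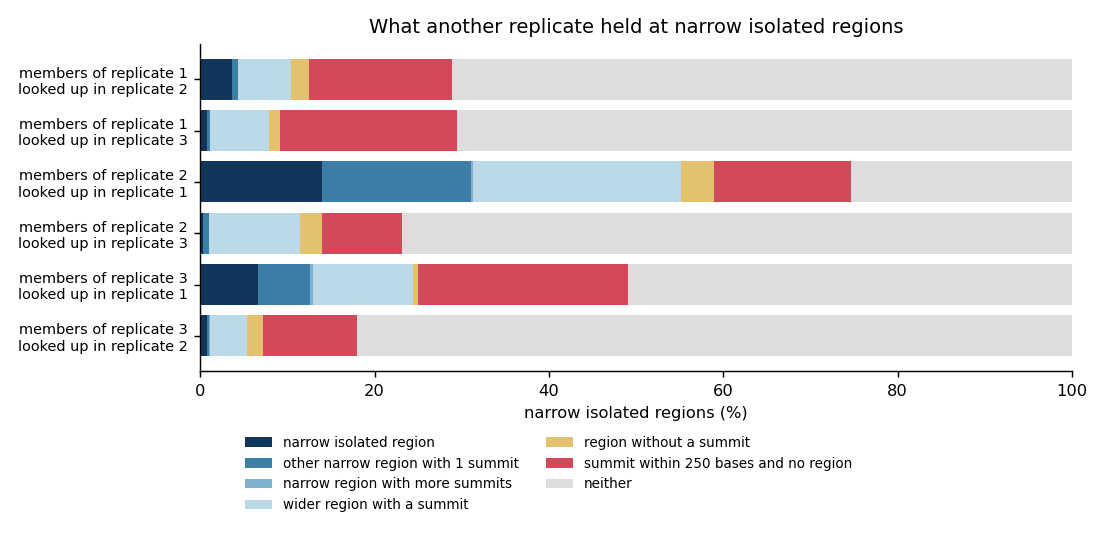
Share (%) of members of 1 replicate by what another replicate held at the same place, for the 6 directed pairs. A summit without a region was more frequent than a narrow isolated region in every pair, and in 5 of 6 pairs at least 50.9% of members had neither a region nor a summit, the exception being members of replicate 2 looked up in replicate 1 (25.4%).

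Isolation held in part across libraries. In replicate 2, 85.1% of the members of replicate 1 were 20 kb or more from any EPIC2 region that did not overlap the member itself, and in replicate 3 the share was 77.1%. Of members of replicate 2, 41.8% were isolated in this way from regions of replicate 1 and 56.5% from those of replicate 3. Of members of replicate 3 the shares were 49.0% in replicate 1 and 74.2% in replicate 2. Regions covered 9.18% of the span up to the last calls in replicate 1, 4.76% in replicate 2 and 11.2% in replicate 3. They numbered 123901, 44289 and 78782 in the same order. The shares isolated in another replicate were not computed for other classes of regions or for shifted members. They are therefore not shown to be a trait of members. Members that kept their isolation from regions of all replicates numbered 4434, 565 and 334, and their matched shares were 43.4%, 66.0% and 50%.

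Isolation itself was compared through narrow crowded regions, which meet the same limits on width and summit number but lie nearer to other regions. They also differed from members in summit score and in the mix of widths, with 28.1% of them at 400 bases in replicate 1, against 37.4% of members. Their matched shares were 39.7%, 69.6% and 39.3% in replicates 1, 2 and 3. Members exceeded them by 4.33 percentage points in replicate 1 and 7.56 points in replicate 3, while in replicate 2 the difference was -0.745 points. The mean difference of 3.72 ± 4.19 points (SD, n = 3) did not exceed the spread between replicates, with an exact sign-flip permutation p of 0.5 (2-sided, higher in 2 of 3 replicates). The smallest p that this test can give with 3 replicates is 0.25. The mean difference was 1.51 points without replicate 3.

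Narrowness was compared through wide isolated regions, which held 1 summit, had the same isolation and were wider than 1000 bases. Their matched shares were 39.1%, 63.5% and 32.5% in replicates 1, 2 and 3. Members were higher by 4.92, 5.34 and 14.3 points, a mean of 8.20 ± 5.32 (SD, n = 3). The direction was the same in 3 of 3 replicates, and the 2-sided exact sign-flip permutation p was 0.25, the smallest this test can give. In single replicates the direction depended on the match distance and on replicate 1, while the mean stayed above 0 in both settings. With matches within 1000 bases the differences were -3.33, -1.98 and 7.68 points in replicates 1, 2 and 3, a mean of 0.789. Without replicate 1 they were -1.28 and 6.83 points in replicates 2 and 3, a mean of 2.77. Summits of members scored higher than those of wide isolated regions, whose median percentiles were 73.8, 69.7 and 72.7. When regions were compared within 3 classes of summit score, the difference was -1.04, -0.954 and -3.12 points, a mean of -1.70 ± 1.22 (SD, n = 3), lower in 3 of 3 replicates with an exact permutation p of 0.25. The lowest class of replicate 3 held 1 member. Weighting the classes by their number of members gave 0.248 ± 6.70 points (SD, n = 3). In replicate 1 the difference was 2.54, 1.43 and -7.08 points in the lowest, middle and highest score class, and in replicate 2 it was 3.82, -2.25 and -4.43 points. In replicate 3 it was -22.8 points in the class with 1 member and 5.34 and 8.14 points in the other two. The same comparison with narrow crowded regions gave a mean of -3.01 ± 5.05 points with equal weights and 1.74 ± 4.21 points with weights by members (SD, n = 3).

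Within members, the matched share rose with the summit score from group to group in replicate 1 and had no such order in replicates 2 and 3. Members were split into 5 groups by score, which held 1045 to 1554 members in replicate 1, 339 to 341 in replicate 2 and 153 to 161 in replicate 3, since tied scores were kept together. Members of replicate 1 were matched in 32.2%, 37.6%, 41.8%, 46.2% and 61.1% of cases from the lowest to the highest scores. In replicate 2 the shares were 62.2%, 71.4%, 75%, 68.3% and 67.4%. In replicate 3 they were 48.4%, 33.1%, 49.0%, 47.2% and 56.3%. The groups are of regions from 1 library each, and no test was run between them. The median summit score was 12.2 for matched and 10.4 for unmatched members of replicate 1, 12.8 and 12.4 in replicate 2, and 11.9 and 11.1 in replicate 3. In percentiles among members, matched summits stood 8.46 ± 5.52 points higher (SD, n = 3), and by the EPIC2 score 8.76 ± 6.36 points higher. Both differences were positive in every replicate.

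**Figure D4:**
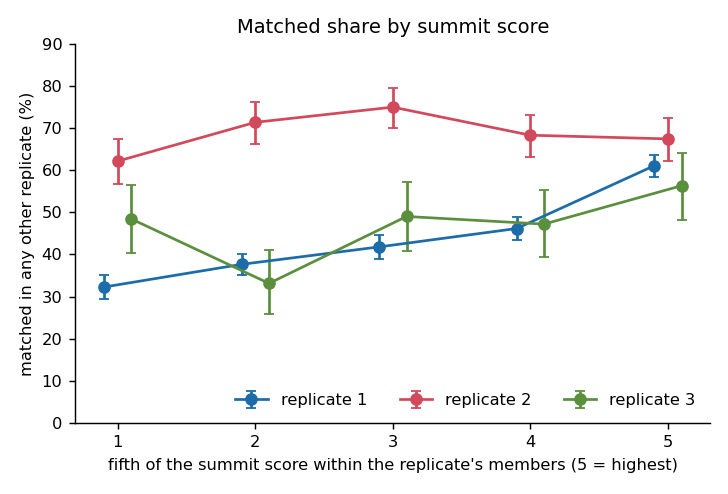
Share (%) of members matched in any other replicate (vertical axis, 95% exact interval) for 5 groups of members ordered by summit score within each replicate. The share rose from 32.2% to 61.1% in replicate 1, was highest in the middle group of replicate 2 (75%) and lowest in the second group of replicate 3 (33.1%).

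The summits found at members in the other replicates also had scores above the median of their own library. Partners of members of replicate 2 in replicate 1 had a median at percentile 87.6 of all summits of replicate 1, against 77.4 for partners of all summits of replicate 2. Partners of members of replicate 1 stood at percentile 64.2 in replicate 2, against 62.4, and at 67.5 in replicate 3, against 58.7. Partners of members of replicate 3 stood at percentile 59.0 in replicate 1, against 56.1, and at 55.0 in replicate 2, against 48.8. Partners of members of replicate 2 in replicate 3 stood at percentile 67.5, against 62.3. In all 6 directed pairs the partners of members were thus ranked higher than the partners of all summits. This was shared by narrow crowded regions, whose partners ranked above those of members in 2 pairs (88.7 for replicate 2 in replicate 1 and 64.8 for replicate 3 in replicate 1), at the same percentile in 3 pairs, and below in 1 pair (62.5 for replicate 1 in replicate 3). A member at percentile 86.9 to 97.7 in its own library was commonly matched by a summit of lower rank.

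Neither the width within the limit nor the length of the gap ordered the matched share. Over widths of 200, 400, 600, 800 and 1000 bases it was 44.0%, 43.6%, 50.2%, 42.9% and 38.1% in replicate 1 and 60.3%, 67.3%, 73.1%, 67.9% and 69.5% in replicate 2. In replicate 3 it was 37.5%, 48.6%, 46.2%, 56.6% and 41.5%, with 32 members at 200 bases. For gaps of 20 to 30 kb it was 44.4%, 72.9% and 43.2% in replicates 1, 2 and 3, and for gaps of 100 kb or more it was 45.7%, 66.6% and 47.5%. Regions just outside the limits were much like those just inside. At 1000 bases the matched shares were 38.1%, 69.5% and 41.5% in replicates 1, 2 and 3, and isolated regions of 1200 bases had 38.3%, 65.2% and 39.9%. Members with a gap of 20 to 22 kb had 43.1%, 75.3% and 44.3%, and narrow single-summit regions with a gap of 18 to 20 kb had 48.2%, 70.8% and 52.2%.

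Members were spread over all 22 chromosomes in each replicate. Density is a chromosome's share of the members over its share of the 2725 megabase windows that held a call. Chromosomes 4 and 6 had the highest mean densities, 1.28 ± 0.402 and 1.27 ± 0.267 (SD, n = 3), with 596, 102 and 91 members on chromosome 4 and 460, 116 and 77 on chromosome 6 in replicates 1, 2 and 3. The order between them, and that of chromosome 5 at 1.23 ± 0.0789, was within the spread between replicates. On chromosome 4 the density was 1.31 in replicate 1 and 1.66 in replicate 3, but 0.860 in replicate 2. Chromosomes 19 and 17 had the lowest densities, 0.357 ± 0.297 and 0.462 ± 0.126 (SD, n = 3). Chromosome 19 held 36, 25 and 2 members in replicates 1, 2 and 3, and chromosome 17 held 63, 29 and 11. Chromosome 22, named after its values were seen, followed at 0.544 ± 0.339.

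This order was the reverse of that of called regions in general. All EPIC2 regions with a summit had mean densities of 2.51 on chromosome 19, 2.48 on chromosome 17 and 1.95 on chromosome 22, and 0.545 on chromosome 4. Across the 22 chromosomes the Spearman correlation between the mean densities of members and of regions with a summit was -0.80, a description without a test, as both come from the same lists. A distance of 20 kb is met less often where regions are dense, so the rule itself works towards this order. The SD of the mean density over chromosomes was 0.244 for members and 0.554 for regions with a summit, and the median SD between replicates was 0.130. Replicates 1 and 3 ordered chromosomes alike (Spearman 0.88 over 22 chromosomes), while replicate 2 was more even, with correlations of 0.17 with replicate 1 and 0.31 with replicate 3. Chromosome 22 had a density of 0.934 in replicate 2, against 0.314 and 0.385 in replicates 1 and 3. The matched share ranged from 39.7% on chromosome 20 to 52.8% on chromosome 19 in replicate 1 and from 56.5% on chromosome 21 to 82.8% on chromosome 17 in replicate 2. In replicate 3 it ranged from 0% of 2 members on chromosome 19 to 77.8% of 9 members on chromosome 21.

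**Figure D5:**
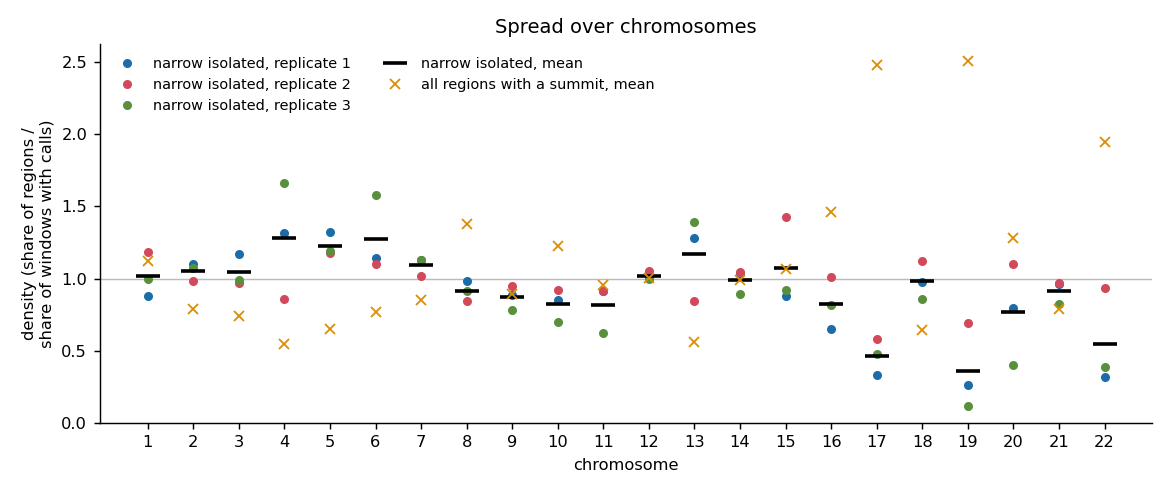
Density of members on chromosomes 1 to 22 (share of regions over share of megabase windows with calls, no unit) in each replicate (circles) and as their mean (bars), with the mean for all EPIC2 regions with a summit (crosses). Members were sparsest on chromosomes 17, 19 and 22, where all regions with a summit were most dense.

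At the scale of megabases, members of replicate 1 lay where the other libraries had few regions. They occupied 2141 of 2725 windows (78.6%), with at most 11 in a window. Windows with a member of replicate 1 held a median of 8 regions of replicate 2, against 31 in windows without one, and 12 regions of replicate 3, against 68. Members were chosen by distance from other regions, which is met less often in dense windows. How much of this contrast the choice brings was not tested. Members of replicate 2 occupied 1256 windows (46.1%), and the median number of regions of replicate 1 was 32 in these and 29 in the rest. Members of replicate 3 occupied 645 windows, which held a median of 24 regions of replicate 1, against 34, and 8 regions of replicate 2, against 11.

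The same place was a member in more than 1 library in a minority of cases. Members were 5.25%, 3.84% and 0.998% of all regions of replicates 1, 2 and 3. The overlap was not computed for other classes of regions or for shifted members, so it has no level to be set against. Replicates 1 and 2 shared 235 members with summits within 250 bases, which are 3.61% of those of replicate 1 and 13.8% of those of replicate 2. Replicates 1 and 3 shared 43, or 0.661% and 5.47%, and replicates 2 and 3 shared 5, or 0.294% and 0.636%. Across shared members the Spearman correlation of the summit score was 0.34 for replicates 1 and 2 and 0.52 for replicates 1 and 3, given as a description over regions. At 79 places at least 2 replicates had a member and all 3 had a summit, and at 4 places all 3 replicates had a member.

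The first of the 4 places lay on chromosome 1 at 142796401 to 142797000, the same 600 bases in all 3 replicates. Its summits scored 56.8, 12.4 and 32.2, respectively, from replicate 1 to replicate 3. The nearest other region lay 255600 bases away in each replicate, and the neighbouring megabase window held no call of any library. On chromosome 11, regions starting at 58751401 had widths of 400, 200 and 200 bases and summit scores of 14.2, 13.5 and 11.1. On chromosome 7, the summits at 123723023, 123723147 and 123722998 had scores of 13.2, 9.18 and 12.7. On chromosome 8, the summits at 132675494, 132675498 and 132675599 had scores of 10.4, 5.46 and 13.8. The summits of a place spanned 195, 109, 149 and 105 bases in the order given. The last 3 places had no empty window beside them.

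Of the 79 places, the 6 with the highest mean percentile of the summit score each had a member in 2 replicates. The highest lay on chromosome 2, with summits at 92296851, 92296855 and 92296843 and scores of 45.8, 91.7 and 72.0 in replicates 1, 2 and 3. Replicates 1 and 3 had members of 400 and 600 bases there, while the region of replicate 2 held 2 summits in 1000 bases. The next lay on chromosome 16 with summits between 46427486 and 46427625 and scores of 23.8, 32.4 and 89.2. Both places had an empty megabase window beside them, and the other 4 did not. On chromosome 9, the summits between 76823770 and 76823799 had scores of 37.3, 19.3 and 15.1, and the region of replicate 3 was 200 bases wide and 469400 bases from any other. On chromosome 8, the summits between 78557378 and 78557414 had scores of 23.6, 32.7 and 11.1, and replicate 3 had no region there. On chromosome 1, the summits between 97311643 and 97311721 had scores of 21.4, 23.1 and 14.2, and those between 30924658 and 30924745 had scores of 29.4, 15.7 and 15.1. In the latter 2 places replicate 3 had a region that missed the rule, at 1400 bases wide in one and 19200 bases from its neighbour in the other.

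Members beside windows without calls were few, though their share exceeded that of narrow crowded regions (0.479%, 0.643% and 0.889%, respectively) in every replicate. Such members numbered 43 in replicate 1 (0.661%), 19 in replicate 2 (1.12%) and 9 in replicate 3 (1.15%). Among members not beside such a window the matched shares were 44.0%, 68.9% and 46.5%, close to those of all members.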

How the data were processed

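SNS-seq of untreated HCT116 cells was made in triplicate. Per the study's methods and the submitters' processing notes, reads were aligned by the authors to hg19 with Bowtie2 2.3.4.2, duplicates were removed with Picard 2.18.17, and each replicate was called on its own with MACS2 2.1.0.20151222 (q of 0.1) and EPIC2 (false discovery rate of 0.1). For its own set of origins the study kept peaks found by both callers and seen in 2 or more of these 3 replicates. Members here were taken from single replicates and are not that set. The summit score deposited by the authors was taken to be −log10 of the q-value: its lowest values correspond to the q of 0.1. What the EPIC2 score deposited by the authors measures is not stated, nor whether it was scaled, so it was used within a replicate only. Calls on chromosome 1 reach 249216371, beyond its hg38 length of 248956422, and the hg38 reference was not used.

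EPIC2 ends were read as inclusive, and gaps count the bases between regions. Circular shifts ran to the last call of each chromosome in 99 even steps, and short shifts ran 10 to 50 kb in both directions. Classes of regions were compared over the 3 replicates with an exact sign-flip permutation test, and no test was run across regions, which are not replicates. Score classes were tertiles over single-summit regions. Places were named where at least 2 replicates had a member and all 3 had a summit within 250 bases, taking the 6 with the highest mean percentile of the summit score and the 4 that were members in all replicates. The 2 densest and the 2 sparsest chromosomes were named, and chromosomes 5, 20, 21 and 22 were added after their values were seen. The members and lists were chosen with earlier results of these data known. Alternatives covered width, isolation, summit score, match distance, number of target summits, shifts, score classes and leaving out each replicate, and the weighting of score classes was added after seeing the data. The functions were tested on simulated data. Python 3.11.15, numpy 2.4.6 and scipy 1.17.1 were used.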

Additional observations from a re-analysis of the deposited data

Results flagged for a closer look

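Chromosome X was outside the rule, which covers chromosomes 1 to 22, and no control sample sets a level there. Regions that met the other conditions numbered 161 of 585 EPIC2 regions on X in replicate 1 and 86 of 189 in replicate 2. They are given here because more than 3 regions, the limit that a count of 0 allows, were found on a chromosome outside the comparisons, which sets no expected level for X. In replicate 3 there were 2 of 35. On chromosomes 1 to 22 members made up 5.25%, 3.84% and 0.998% of EPIC2 regions in replicates 1, 2 and 3. A summit of another replicate lay within 250 bases in 49 of the 161 and in 31 of the 86. On chromosomes 1 to 22 the matched shares of members were higher, at 44.0% and 68.9% in replicates 1 and 2. The matched share of all summits on X was not computed, so the lower share is not shown to be particular to these regions. Median summit scores of the regions on X stood at percentile 85.2 and 91.7 of the summits on the other chromosomes. With 3 replicates, no group was large enough for a search for outlying samples.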

How the results depend on the processing

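Read depth is unknown, and the sign-flip test cannot give a p below 0.25 with 3 replicates. Of 94 values recomputed under alternatives, 73 stayed within the limits set for them. For shares, ratios, percentiles and densities the limit was the SD between replicates of the main value. For the number of members it was a fixed factor, and for differences only the sign of the mean. These limits are wide: the mean EPIC2 percentile ran from 23.1 to 39.1 within them. The percentiles of both scores and the highest chromosome density stayed within the limits under every alternative run, although the densest chromosome was 4, 5 or 6 by turns. The mean number of members was 4591 with widths up to 1600 bases, 4837 with an isolation of 10 kb, 1278 with 50 kb, 1778 with isolation from the regions of all replicates, and between 1244 (without replicate 1) and 4105 on leaving out 1 replicate. Wider limits on width and shorter isolation admit more regions by definition. What else set these numbers was not tested. The mean matched share was 36.2% within 100 bases, 36.5% with equal numbers of target summits (62131 per replicate), and between 14.4% (without replicate 1) and 46.7% on leaving out 1 replicate, with 34.0% without replicate 2. Its ratio to the shifted share was 11.2 with widths up to 1600 bases, 12.4 with a summit score of 2 or more, 18.6 within 100 bases, 6.80 within 500 bases, 3.75 within 1000 bases, 18.6 with equal numbers, 13.1 with shifts of 10 to 50 kb, and between 9.73 (without replicate 1) and 21.6 (without replicate 3). It was above 1 under each of them. Within classes of summit score the difference in matched share changed sign, to -3.01 points against narrow crowded and -1.70 points against wide isolated regions, and with classes weighted by members it was 1.74 and 0.248 points. Against crowded regions the replicates gave 0.594, -0.835 and -8.78 points. In replicate 3 the lowest class held 1 member and differed by -35.6 points, while the other classes differed by 2.63 and 6.66 points. What else moved these values was not tested. A match distance of 1000 bases gave 0.675 points and, with 1 of 3 replicates above 0, 0.789 points. No paired analysis was possible because the samples form 1 group and no groups of samples share replicate numbers. Classes of regions were compared within each replicate.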

Other observations

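A few members had EPIC2 scores far above the rest, with none in between. In replicate 1, 20 members had scores from 1003 to 1093, and the next highest was 182. In replicate 2, 45 members had scores from 1000 to 2009, and the next highest was 199. In replicate 3, 1 member had a score of 2019, and the next highest was 101. This member lay on chromosome 16 from 46427001 to 46428000, beside an empty megabase window. Of the others, 1 in replicate 1 and 0 in replicate 2 lay beside such a window. A summit of another replicate lay within 250 bases of 18 of the 20, 33 of the 45 and the member of replicate 3. Over all members the matched shares were 44.0%, 68.9% and 46.8% in replicates 1, 2 and 3. The median summit scores of the 20 and the 45 were 48.5 and 50.3. Such EPIC2 scores were not particular to members. The highest were 1140, 2044 and 147 in narrow crowded regions of replicates 1, 2 and 3. In wide isolated regions they were 14050.5, 14121.5 and 7669. The limit between the groups was chosen after the values were seen.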
